A study of Danio rerio with 28 samples.

Results

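Zebrafish embryos injected with a morpholino against ybx1 were compared at 4 and at 3 hours post fertilisation (hpf). In this hour many transcripts of the embryos' own genome rose. No morphant library precedes 3 hpf, so when that rise began is not shown. The comparison rests on 4 of the 28 libraries of the series, chosen by their titles: 2 poly(A) libraries of morphants (ybx1 MO) at 3 hpf and 2 at 4 hpf. The titles of these libraries say only MO, and the series description gives ybx1 as the target; no control morpholino is named. All embryos were of the AB strain and whole embryos were used, so each value is an average over all cells of many embryos, and fewer cells of a type cannot be told apart from less RNA per cell. Uninjected wild-type (WT) embryos at 2, 3 and 4 hpf, with 2 poly(A) libraries each, give the normal course. Another 8 libraries, rRNA-depleted and from embryos of the same strain, cover embryos injected with the RNA polymerase II inhibitor alpha-amanitin (0.2 ng), sampled at 2, 4 and 6 hpf, and WT embryos sampled at 4 hpf. The labels do not say whether the poly(A) replicates came from separate clutches, so the p-values measure only the spread between these samples.

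An early fish embryo lives on mRNA and protein that the mother stored in the egg, and its own genome is silent through the first cleavages. Control then passes to the embryo: zygotic genes are switched on by maternal transcription factors such as Nanog, Pou5f3 and SoxB1 proteins, while stored mRNAs are deadenylated and degraded. Ybx1, an mRNA-binding protein of the cold shock domain family, is known in zebrafish for holding maternal transcripts in check and for binding methylated (m5C) mRNA.

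The 4 morphant libraries held 80640561 and 77090322 counted reads at 3 hpf and 88196256 and 59625787 at 4 hpf. One gene without a symbol took 22.2% to 28.9% of these reads. Levels are given as CPM, which are counts scaled to a common library size, in the order replicate 1, replicate 2. In both pairs the counts differed by more than sampling noise, with 1384 genes at least 2-fold apart between the 3 hpf replicates and 2630 between the 4 hpf replicates. Among WT pairs the 4 hpf pair was the least alike, with 5203 such genes. Transcripts of YBX1, the target, stood at 375 and 373 CPM at 3 hpf and at 434 and 456 CPM at 4 hpf (log2 fold change 0.25, SE 0.18, edgeR adjusted p = 0.51). A morpholino can block translation without removing the mRNA, so these levels do not check the labels.

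Between 3 and 4 hpf the morphants gained early zygotic transcripts and lost a set of egg mRNAs. Of 22377 genes tested 1737 (7.76%) changed at an adjusted p below 0.05 in edgeR's quasi-likelihood test: 1075 rose (4.8%) and 662 fell (2.96%). The rises were large: the median log2 fold change of the genes that rose was 4.48 as fitted and 3.42 with counts of 3 or fewer set to 3. The falls were small, with a median of -0.85, and 20 genes fell at least 4-fold. Of the genes that rose, 439 had 3 counts or fewer over both 3 hpf libraries, so their fitted folds depend on the prior count. Of the 636 others 177 rose at least 16-fold. In all 259 genes reached 10 CPM at 4 hpf, and 469 stayed below 1 CPM. Among the genes that fell, 553 stood at 10 CPM or more at 3 hpf. The count of calls was 696 without replicate 1 of 3 hpf, 652 without replicate 2 of 3 hpf and 691 without replicate 2 of 4 hpf.

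**Figure D1:**
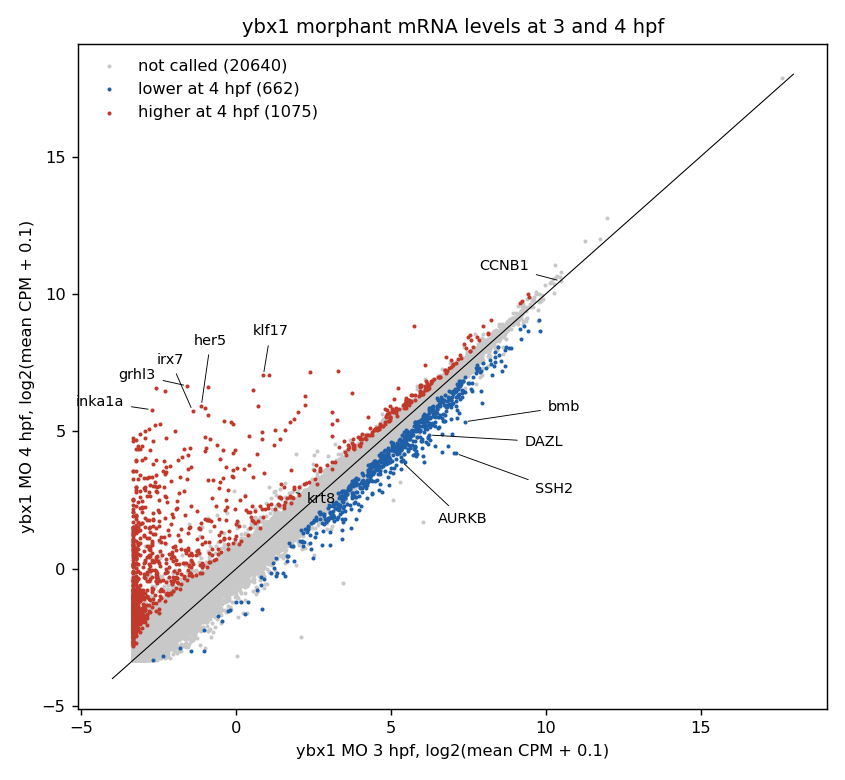
Mean level of each tested gene in ybx1 MO at 3 hpf (x axis) and 4 hpf (y axis), both as log2(mean CPM + 0.1); red genes rose, blue genes fell and grey genes were not called. The 1075 genes that rose lie mostly at low 3 hpf levels, far above the diagonal, whereas the 662 that fell lie close below it at high 3 hpf levels.

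The share of all reads taken by the genes that rose went from 1.49% and 1.61% at 3 hpf to 2.42% and 3.00% at 4 hpf. Over the same hour the genes that fell went from 4.99% and 5.48% to 2.82% and 2.73%. The 4 hpf replicates differed along the same axis: replicate 2 lay above replicate 1 for 920 of the 1075 genes that rose (85.6%) and below it for 481 of the 662 that fell (72.7%), against 49.1% above over all genes tested. What set the replicates apart was not tested.

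The rRNA-depleted libraries, which share none with this comparison, sort the genes by their dependence on transcription. Of 4200 tested genes whose RNA at 4 hpf exceeded the amanitin level in WT by 2-fold or more, 821 rose in the morphants (19.5%) and 8 fell, with a median log2 fold change of 1.02 (0.66 with the 3-count floor). In WT 2542 of these 4200 rose over the same hour, with a median of 2.40. Of 5310 maternal genes whose RNA declined from 2 to 6 hpf under amanitin, 454 fell (8.55%) and 44 rose, with a median of -0.12. Of 3763 maternal genes that held their relative level under amanitin, 100 fell and 51 rose, with a median of 0.06; the median over all genes was 0.09. Poly(A) selection follows tail length as well as amount, and tail length was not measured.

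Transcripts known as the first zygotic products of the fish embryo led the rise. Of 18 tested members of this list 16 rose and 0 fell, with a median log2 fold change of 7.17 (6.71 with the 3-count floor), and 11 of the 16 were called in all 4 fits that left out a library. The homeobox gene irx7 stood at 0.321 and 0.230 CPM at 3 hpf and at 53.5 and 53.6 CPM at 4 hpf. That is a 193-fold rise (log2 fold change 7.60, SE 0.43, edgeR adjusted p = 1.3e-06), with the replicates of each hour far closer to each other than the hours. The Krüppel-like factor gene klf17, which acts in the enveloping layer and hatching gland, went from 1.97 and 1.5 to 117 and 146 CPM (log2 fold change 6.25, SE 0.43, edgeR adjusted p = 7.9e-06). SOX3, a SoxB1 gene of the early ectoderm, went from 0.456 and 0.411 to 44.2 and 51.5 CPM (6.78, SE 0.59, edgeR adjusted p = 4.5e-05).

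For none of these genes did the hours overlap, as for all 1075 genes that rose. With 2 libraries an hour a called gene is all but bound to show this, so it adds no support to the calls. The share over all genes tested is not given. Another SoxB1 gene, sox19a, rose from 0.0622 and 0.10 to 31.1 and 46.5 CPM (log2 fold change 8.86, SE 0.99, edgeR adjusted p = 0.00034). The epithelial transcription factor gene grhl3 rose from 0.207 and 0.260 to 82.4 and 119 CPM (8.74, SE 0.82, edgeR adjusted p = 0.0001). The called members mxtx1, asb11 and nnr had 3 counts or fewer at 3 hpf, so no fold is given for them. The exceptions in the list were SOX2, at 0.169 CPM or less in every morphant library, and OSR1, with 0.187 and 0.120 against 0.495 and 1.25 CPM (edgeR adjusted p = 0.34 and 0.055).

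The largest folds among genes with a symbol, at least 10 CPM at 4 hpf and more than 3 counts at 3 hpf belonged to si:dkey-188c14.4, a gene with no given name, at 0.0207 and 0.110 against 84.3 and 106 CPM (log2 fold change 10.46, SE 1.16). The next was inka1a, a p21-activated kinase inhibitor gene, at 0.0415 and 0.0601 against 38.0 and 72.1 CPM (10.03, SE 1.03). The apelin receptor gene aplnrb, needed for mesendoderm cell movement, stood at 0.0207 and 0.0601 against 28.5 and 38.7 CPM (9.63, SE 1.27). All 3 passed edgeR's test (adjusted p = 0.00033, 0.00019 and 0.0014). Also among the 12 largest were drll.3, DUSP6, GATA3, NET1, vgll4l and, each with 1 of 2 gene IDs of its symbol, ACKR3 and BMP2; their log2 fold changes lay between 7.91 and 9.72, as did those of grhl3 and sox19a.

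**Figure D2:**
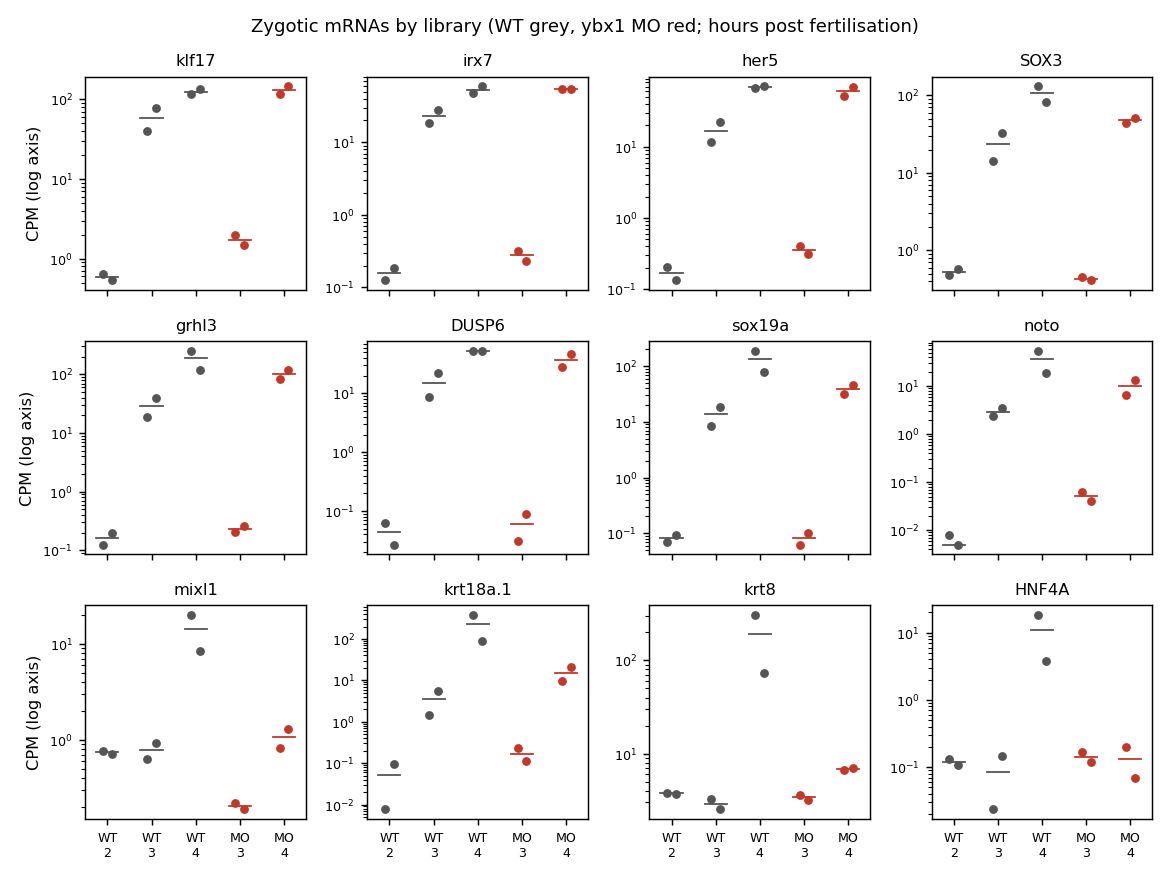
CPM of 12 zygotic genes in each library (log axis; points are libraries, bars are group means) for WT at 2, 3 and 4 hpf (grey) and ybx1 MO at 3 and 4 hpf (red). For irx7, klf17 and her5 the morphants went from the level of WT at 2 hpf or slightly above it to that of WT at 4 hpf, whereas krt8 and HNF4A stood far below WT at 4 hpf.

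Some genes of the signals that pattern the embryo rose in the same hour. The lists share genes, so counts from different lists are not separate results. In the Nodal pathway, which induces mesoderm and endoderm, 5 of 11 tested genes rose and 0 fell. The ligand gene ndr1 went from 1.16 and 0.821 to 4.88 and 6.11 CPM (log2 fold change 2.47, SE 0.35, edgeR adjusted p = 0.0003). The Nodal antagonist gene lft2 went from 0.0622 and 0.0200 to 5.78 and 7.85 CPM (7.32, SE 0.67, edgeR adjusted p = 2.2e-05), and lft1 from 0.135 and 0.130 to 2.26 and 3.67 CPM (4.46, SE 0.48). The target genes mixl1, a homeobox gene, and tbx16, which encodes a mesodermal T-box factor, also rose. The maternally supplied parts of the pathway, the co-receptor gene tdgf1 (0.28), the transcription factor gene foxh1 (0.11) and SMAD2 (-0.41), did not pass the test. Without replicate 2 of 3 hpf, 3 genes of the pathway were called.

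Of 11 genes of the dorsal organizer, the signalling centre of the future back, 7 rose and 0 fell. The homeobox gene dharma, at the head of the organizer cascade, went from 0.0829 and 0.0701 to 3.66 and 4.40 CPM (log2 fold change 5.69, SE 0.59, edgeR adjusted p = 3.9e-05). The notochord homeobox gene noto reached 6.58 and 13.3 CPM from 0.0622 and 0.0401 CPM (7.56, SE 0.84, edgeR adjusted p = 0.00022). The BMP antagonist gene chrd stood at 2.54 and 8.48 CPM after 0.135 and 0.0200 CPM (6.13, SE 1.16, edgeR adjusted p = 0.008), so its 4 hpf replicates lay further apart. GSC, at 0.891 and 0.932 against 1.82 and 3.52 CPM, did not pass (edgeR adjusted p = 0.051). The organizer count was 3 without either 3 hpf replicate and 4 without replicate 2 of 4 hpf.

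In the BMP and ventral list 5 of 15 genes rose and 0 fell. They were the BMP target genes ID1 and SMAD7, the caudal homeobox gene cdx4, and chrd and admp, both also counted in the organizer list. The ligand gene bmp7a stood at 0.373 and 0.521 against 0.910 and 1.54 CPM (edgeR adjusted p = 0.34). The BMP count was 2 and 3 without replicates 1 and 2 of 3 hpf and 3 without replicate 2 of 4 hpf. In the FGF list 3 of 10 rose: the MAP kinase phosphatase gene DUSP6, the receptor gene fgfr4 and the feedback inhibitor gene SPRY4; DUSP6 alone was called without either 3 hpf replicate or replicate 2 of 4 hpf. DUSP6 went from 0.0311 and 0.0902 to 28.5 and 46.5 CPM, a log2 fold change of 9.22 (SE 0.86, edgeR adjusted p = 9.7e-05). Of 14 Wnt genes 2 rose, the ligand gene wnt11f2 and the antagonist gene dkk1b, and 1 fell, WNT8A (1 of 2 gene IDs, log2 fold change -0.67, a call lost whichever library was left out). Among 11 Notch and hairy genes 4 rose. The hairy-type repressor gene her5, a midbrain and endoderm factor, went from 0.404 and 0.311 to 52.1 and 69.1 CPM (7.40, SE 0.51, edgeR adjusted p = 4.1e-06), and the related gene her11 from 0.321 and 0.190 to 16.6 and 24.9 CPM (6.33, SE 0.58).

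Epithelial and yolk genes rose in part. Of 25 genes of the enveloping layer, the embryo's outer epithelium, 7 rose and 0 fell, with a median log2 fold change of 1.00. The claudin gene cldne went from 0.145 and 0.0401 to 7.74 and 15.5 CPM (6.95, SE 1.19, edgeR adjusted p = 0.0047), and the keratin gene krt18a.1 from 0.228 and 0.110 to 9.56 and 21.2 CPM (6.49, SE 1.36, edgeR adjusted p = 0.014). Other keratin genes stayed low: krt8 had 3.63 and 3.22 against 6.63 and 7.08 CPM (edgeR adjusted p = 0.32) and krt4 0.653 and 0.270 against 1.64 and 3.40 CPM (edgeR adjusted p = 0.35). The summed level of 6 enveloping layer markers was 5.36 and 4.12 CPM at 3 hpf and 109 and 167 CPM at 4 hpf. Most of the 4 hpf sum came from grhl3, a gene also on the first zygotic list. The part of the number of such cells in these values was not tested. The enveloping layer count was 3 without either 3 hpf replicate and 4 without replicate 2 of 4 hpf.

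Of 15 genes of the yolk syncytial layer, the nuclei that line the yolk, 5 rose and 0 fell. Of these, mxtx2, apoeb and mxtx1 are also on the first zygotic list and GATA3 is on the enveloping layer list. Only apoa2 was on neither, and its call was lost whichever library was left out. The homeobox gene mxtx2, which sets up this layer, went from 0.373 and 0.10 to 11.2 and 13.4 CPM (log2 fold change 5.70, SE 0.84, edgeR adjusted p = 0.0012), and the apolipoprotein gene apoeb from 0.694 and 0.411 to 18.4 and 27 CPM (5.36, SE 0.96, edgeR adjusted p = 0.0061). HNF4A, a nuclear receptor gene acting later in this layer, had 0.166 and 0.120 against 0.198 and 0.0702 CPM. The yolk layer count was 2 without either 3 hpf replicate and 3 without replicate 2 of 4 hpf. In the neural and ectoderm list 5 of 10 rose, 3 of them (SOX3, irx7 and sox19a) shared with the first zygotic list. Markers of muscle, blood, neurons, pancreas, leukocytes and lens summed to 0.371 to 0.772 CPM in the 4 libraries; 2 of the 6 matched were at 0 in all of them.

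The mRNAs that fell were mostly stored ones. Of 28 oocyte mRNAs 9 fell and 0 rose, and of 16 germ plasm mRNAs 4 fell and 1 rose. DAZL, a germ cell translation factor gene on both lists, went from 72.2 and 76.8 to 28.5 and 29.7 CPM (log2 fold change -1.36, SE 0.14, edgeR adjusted p = 1.6e-05). MOS, the kinase gene that arrests the egg in meiosis, went from 90.5 and 82.5 to 40.0 and 41.3 CPM (-1.09, SE 0.15, edgeR adjusted p = 0.00031), and the oogenesis-related gene org from 144 and 147 to 52.0 and 48.2 CPM (-1.54, SE 0.21, edgeR adjusted p = 0.00024). In each case the replicates of an hour lay far closer to each other than the hours did. The hours did not overlap for these or for any other of the 662 genes that fell, which again follows from the calls and adds no support.

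Other egg mRNAs did not pass the test in this hour. Among them were the cyclin mRNAs CCNB1 (log2 fold change -0.00) and CCNA1 (0.02), the germ line helicase mRNA DDX4 (0.07) and the zona pellucida mRNA zp3a.1 (-0.12). BTG4, which recruits the deadenylase to maternal mRNA, had 218 and 207 against 113 and 101 CPM and missed it (-0.99, SE 0.30, edgeR adjusted p = 0.068). TDRD9, a piRNA pathway helicase gene, was the germ plasm member that rose (0.68, SE 0.18, edgeR adjusted p = 0.028), a call lost whichever library was left out. The germ plasm count of falls was 2 without replicate 2 of 3 hpf, 1 (DAZL) without replicate 2 of 4 hpf and 9 by DESeq2. The oocyte count was 5 without replicate 2 of 4 hpf. Summed levels of 4 germ line markers were 927 and 877 CPM at 3 hpf and 780 and 735 CPM at 4 hpf.

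The largest falls among named genes were in SSH2, a cofilin phosphatase gene, from 136 and 137 to 20.4 and 16.0 CPM, a 7.48-fold fall (log2 fold change -2.90, SE 0.28, edgeR adjusted p = 2.2e-05). The SH2 domain gene sh2d5 fell from 130 and 133 to 20.3 and 16.4 CPM (-2.84, SE 0.34, edgeR adjusted p = 0.00019). Others among the 12 largest falls were dip2cb, CCNI2, trub2, bmb, SBF2, ZMYND8 and ITM2C (the last 2 each 1 of 2 gene IDs), and both gene IDs of NIBAN2, with log2 fold changes from -2.40 to -1.97. The gene bmb, brambleberry, encodes a maternal protein needed for nuclear fusion in cleaving embryos.

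Of 32 tested genes of mitosis and replication 9 fell and 2 rose, and the 9 were mitotic regulators. Aurora kinase B, AURKB, went from 37.8 and 43.4 to 15.9 and 13.9 CPM (log2 fold change -1.45, SE 0.14, edgeR adjusted p = 1.1e-05). Aurora kinase A, aurka, went from 103 and 102 to 50.6 and 47.7 CPM (-1.07, SE 0.11, edgeR adjusted p = 1.5e-05), and the spindle motor gene kif11 from 55.7 and 59.4 to 28.4 and 27.5 CPM (-1.04, SE 0.18, edgeR adjusted p = 0.0014). The spindle checkpoint gene MAD2L1, the kinase genes CDK1 and plk1, the cytokinesis genes ECT2 and KIF23 and the spindle assembly gene TPX2 completed the 9, with log2 fold changes from -1.06 to -0.45. Replication genes such as PCNA (0.08), CDC6 (0.10) and MCM5 (0.08) did not pass the test. WEE1, the kinase gene that restrains CDK1, rose from 18.3 and 19.3 to 39.7 and 51.7 CPM (1.28, SE 0.23, edgeR adjusted p = 0.0023), and so did 1 of 2 gene IDs of MCM6, from 0.135 and 0.230 to 1.74 and 2.22 CPM (3.42, SE 0.62).

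Of 27 genes of RNA polymerase II and its general factors 5 fell and 0 rose in edgeR: the subunit genes POLR2D (log2 fold change -0.88) and POLR2F (-0.78), the kinase gene CDK7 (-0.74), TAF3 (-0.65) and the oocyte form of TBP, TBPL2 (-1.06). The subunit gene POLR2D went from 23.1 and 22.6 to 12.7 and 12.1 CPM (edgeR adjusted p = 0.00022). POLR2D and POLR2F were called whichever library was left out, TAF3 and TBPL2 in none of these 4 fits, and the count was 3 without replicate 1 of 4 hpf and 2 without any of the others. The maternal activators nanog (0.25), pou5f3 (0.02) and sox19b (-0.08) did not pass the test, and of the 10 activators tested TBPL2 was the one called, a call lost whichever library was left out.

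**Figure D3:**
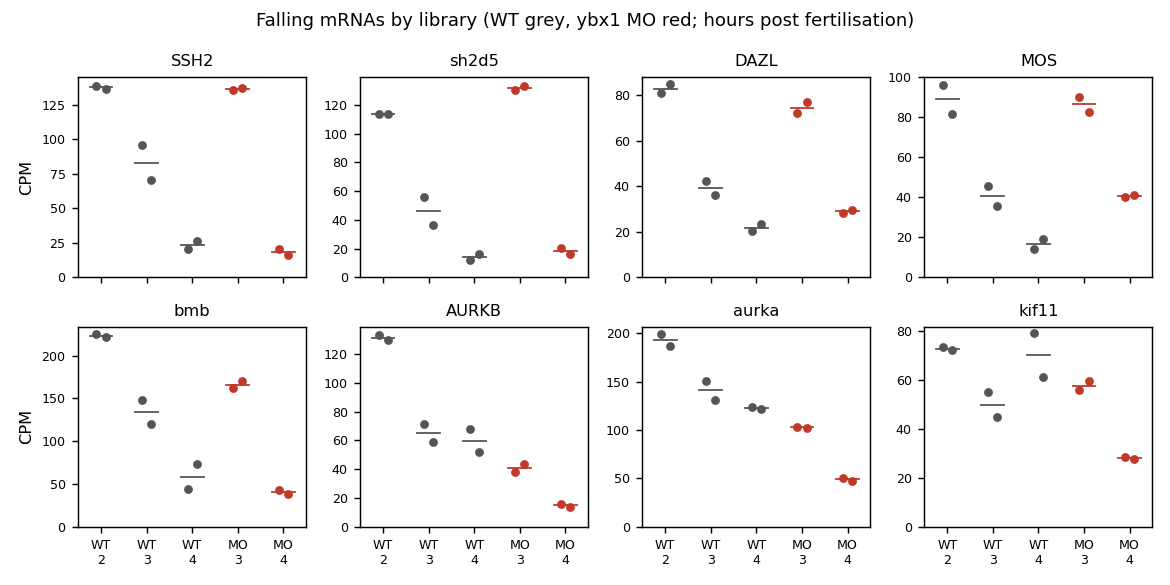
CPM of 8 falling mRNAs in each library (axis from 0; points are libraries, bars are group means) for WT at 2, 3 and 4 hpf (grey) and ybx1 MO at 3 and 4 hpf (red). SSH2, sh2d5, DAZL and MOS stood near the WT 2 hpf level in the 3 hpf morphants and fell within the next hour, and AURKB, aurka and kif11 at 4 hpf lay below every WT library shown.

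Ribosomal protein and mitochondrially encoded genes moved little, and other housekeeping and regulatory lists varied. Over all genes tested 4.8% rose and 2.96% fell. None of 67 ribosomal protein genes was called by edgeR or by DESeq2, with a median log2 fold change of 0.17, and 6 were higher and 0 lower at an unadjusted p below 0.05 in edgeR. None of 13 mitochondrially encoded genes was called by either tool (median -0.19), with 2 higher and 2 lower at the unadjusted threshold; a fit of only the groups compared called 8 lower. Among 34 genes of deadenylation and decay 2 rose (EDC3 and BTG1) and 1 fell (cth1). EDC3, at an edgeR adjusted p of 0.0495, was not called by DESeq2, and neither rise was called without either 3 hpf replicate or replicate 2 of 4 hpf. Among 18 of poly(A) binding and cytoplasmic polyadenylation 1 fell, the poly(A) polymerase gene TENT4A, from 119 and 123 to 63.5 and 59.7 CPM. Of 24 Y-box proteins and m5C and m6A factors 3 rose (12.5%), the m6A readers IGF2BP3, YTHDF2 and YTHDF1, and 1 fell (FMR1). The reader gene IGF2BP3 went from 187 and 197 to 301 and 333 CPM (log2 fold change 0.72, SE 0.10, edgeR adjusted p = 0.00034) and was the one riser of the list called whichever library was left out; YTHDF1 and YTHDF2 were called in none of those 4 fits.

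Of 16 mesoderm and endoderm regulators 3 rose (foxa3, tbx16 and mixl1) and 1 fell (WNT8A) in edgeR, while DESeq2 called 7 higher and 1 lower. The 4 named genes were already counted on lists given above. Without replicate 2 of 3 hpf none of the 16 was called, and without replicate 1 of 3 hpf or replicate 2 of 4 hpf 1 rose. Of 14 epiboly genes 2 rose, cldne, also on the enveloping layer list, and the hyaluronan synthase gene HAS2. Of 28 translation factors 1 rose (EIF3D, log2 fold change 0.48) and of 29 proteasome genes 4, or 13.8% (PSMB2, PSMB5, PSMD1 and PSMB8). Without replicate 2 of 3 hpf no gene of these 3 lists was called; without replicate 1 of 3 hpf or replicate 2 of 4 hpf 1 was. Among 7 germ cell genes 2 fell (ca15b and tdrd7a, both also among the germ plasm falls). Of 10 later tissue genes 1 rose (ELAVL3, with 3 counts or fewer at 3 hpf). The germ cell count was 1 without replicate 2 of 3 hpf and 0 without replicate 2 of 4 hpf, and the later tissue call was made only without replicate 2 of 4 hpf among the 4 such fits.

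Of the stress lists, 1 gene rose of 14 interferon genes (isg15), 2 of 25 endoplasmic reticulum stress genes (DDIT3 and atf4b) and 2 of 22 chaperone genes (HSP90AB1 and HSPB1). These were 7.14%, 8% and 9.09% of the tested members, against 4.8% over all genes tested. Without either 3 hpf replicate none of the interferon and endoplasmic reticulum stress genes was called in edgeR, and 1 and 0 chaperone genes were.

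**Figure D4:**
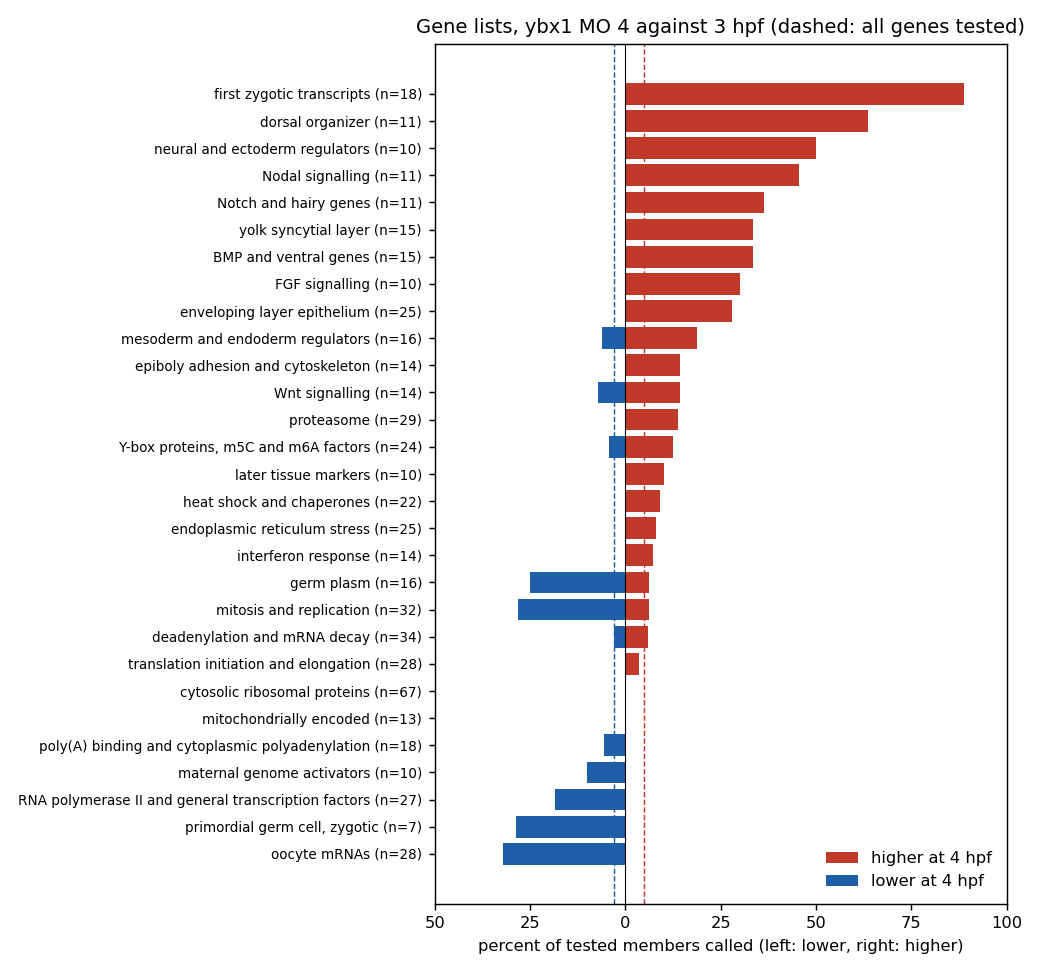
Percent of the tested members of each of 29 gene lists called higher (red, right) and lower (blue, left) in ybx1 MO at 4 against 3 hpf; dashed lines mark the 4.8% and 2.96% of all genes tested. Lists of zygotic and patterning genes extend to the right and lists of oocyte, germ plasm, mitosis and polymerase genes to the left.

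The same hour in WT moved more genes. From 3 to 4 hpf 3821 genes rose in WT (17.1%) and 2340 fell (10.5%), 6161 in all (27.5%). From 2 to 3 hpf 734 rose (3.28%) and 292 fell (1.3%), 1026 in all (4.59%). Of the 324 genes that rose in WT in both hours, 295 rose in the morphants (91.0%), and of the 410 that rose in WT from 2 to 3 hpf but were not called higher from 3 to 4 hpf, 105 did (25.6%). Of the 3497 that rose in WT from 3 to 4 hpf but were not called higher from 2 to 3 hpf, 483 rose in the morphants (13.8%). Of 18146 genes that rose in WT in neither hour, 192 did (1.06%). Among genes that fell, 478 of the 662 also fell in WT from 3 to 4 hpf (72.2%). The morphant and WT changes share no library.

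Over 15218 genes with at least 1 CPM in some group, the morphant change from 3 to 4 hpf had a Pearson correlation of 0.595 with the WT change of the same hour and of 0.828 with the WT change from 2 to 3 hpf. In ranks the order was the other way, 0.542 and 0.369. These are descriptions across genes, which are not replicates and share their libraries. At 4 hpf the morphant mean exceeded the WT mean of 3 hpf for 881 of the 1075 genes that rose and the WT mean of 4 hpf for 182. The 1075 genes were called on the same 4 hpf morphant values, so these counts are a description and no test. Shares over all genes tested are not given.

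The difference between the morphant and the WT change from 3 to 4 hpf passed edgeR's interaction test for 458 genes (2.05%): 172 rose more or fell less in the morphants (0.769%) and 286 the reverse (1.28%). Genes already present in WT at 3 hpf were among the first kind. For irx7 the morphants gained 6.40 more on the log2 scale than WT (SE 0.51, edgeR adjusted p = 9e-05); WT held 18.7 and 27.8 CPM at 3 hpf and reached 47.4 and 59.1 CPM at 4 hpf. DUSP6 gained 7.43 more (SE 1.02, edgeR adjusted p = 0.0056) and her5 5.38 more (SE 0.60, edgeR adjusted p = 0.00049). The difference for irx7, her5, klf17 and DUSP6 held in all 8 fits that left out a library.

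Among the opposite kind were genes that appeared in WT between 3 and 4 hpf and stayed low in the morphants. The keratin gene krt8 reached 307 and 72.6 CPM in WT at 4 hpf, and its morphant change was 5.02 lower than the WT change on the log2 scale (difference -5.02, SE 0.73, edgeR adjusted p = 0.0076). The amino acid transporter gene SLC7A8 reached 71.9 and 20.4 CPM in WT and stood at 1.31 and 1.77 CPM in the morphants (difference -5.87, SE 0.80, edgeR adjusted p = 0.0052). For gna15.1, a G protein gene, and HNF4A the differences were -7.05 and -6.99, called in 2 of 8 fits without a library. None of the 4 was called in a fit of only the groups compared. The WT replicates at 4 hpf lay far apart for all of these genes, with replicate 1 above replicate 2; without replicate 2 of WT at 4 hpf 3623 genes were called. The count was 126 and 147 without replicates 1 and 2 of the 3 hpf morphants, 143 without replicate 2 of the 4 hpf morphants, and 207 and 196 without replicates 1 and 2 of WT at 3 hpf.

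Mitotic genes also differed from WT. Of the 32 tested genes of mitosis and replication 5 had a lower change than in WT. They were AURKB (difference -1.32, SE 0.19, edgeR adjusted p = 0.0018), aurka (-0.86), kif11 (-1.53), CDK1 (-1.11) and MAD2L1 (-0.93). The differences for kif11 and CDK1 were larger than their falls in the morphants (-1.04 each), so the fitted WT change of these genes was not a fall. In WT AURKB went from 133 and 130 CPM at 2 hpf to 71.6 and 59.0 CPM at 3 hpf, and stood at 68.1 and 51.7 CPM at 4 hpf. The differences for AURKB and kif11 held in all 8 fits without a library, that for aurka in 6, for CDK1 in 3 and for MAD2L1 in 1. In a fit of only the groups compared those for AURKB, CDK1 and MAD2L1 were not called, and with library totals alone those for aurka, CDK1 and MAD2L1 were not; kif11 was called in both. Ribosomal protein genes rose in WT, 67 of 67, by a median of 0.83, and 8 of them passed the interaction test, all lower in the morphants. RPS6 was one, at 34.5 and 33.2 against 38.6 and 38.0 CPM in the morphants and 33.9 and 33.7 against 104 and 62.1 CPM in WT (difference -1.12, SE 0.22, edgeR adjusted p = 0.015).

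Set against the WT change 1 hour earlier, from 2 to 3 hpf, the morphant change differed for 59 genes (0.264%), 12 with a higher (0.0536%) and 47 with a lower change (0.21%). For irx7 the difference was 0.33 (SE 0.65), for her5 0.82 (SE 0.70) and for DUSP6 0.98 (SE 1.76); none passed, and intervals this wide do not show that the changes were alike. Among the 47 were stored mRNAs such as SSH2. SSH2 fell by 2.90 on the log2 scale in the morphants, after 139 and 136 CPM at 2 hpf and 96.1 and 70.5 CPM at 3 hpf in WT (difference -2.18, SE 0.37, edgeR adjusted p = 0.032). ZMYND8 and 1 gene ID of NIBAN2 had differences of -2.57 and -2.23. The count was between 0 and 6 without either replicate of WT at 2 hpf, either replicate of the 3 hpf morphants, replicate 1 of WT at 3 hpf or replicate 2 of the 4 hpf morphants, and 22 without replicate 2 of WT at 3 hpf.

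**Figure D5:**
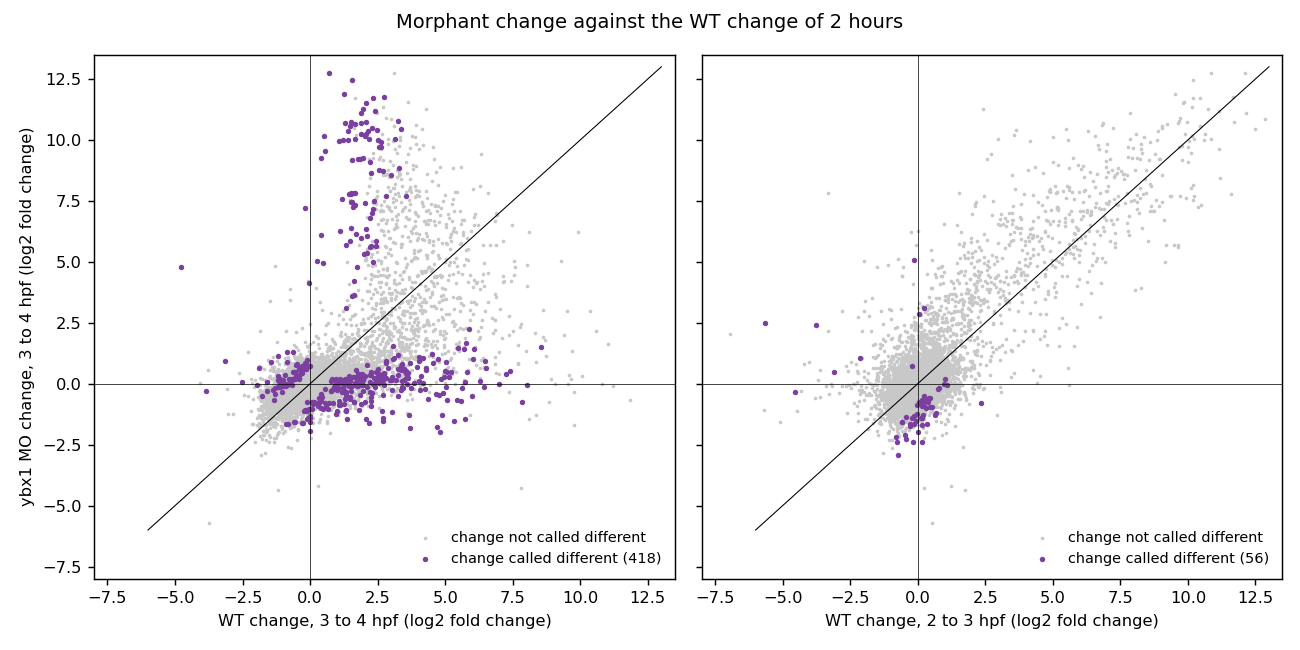
Morphant change from 3 to 4 hpf (y axis, log2 fold change) against the WT change from 3 to 4 hpf (left) and from 2 to 3 hpf (right) for 15218 genes; purple marks genes whose change differed at an edgeR adjusted p below 0.05, and the diagonal marks equal change. On the left 418 purple genes form an upper arm that rose mainly in the morphants and a horizontal arm that rose mainly in WT; on the right 56 genes are purple.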

How the data were processed

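The series holds 20 poly(A) and 8 rRNA-depleted RNA-seq libraries of whole zebrafish embryos. The authors deposited whole-number read counts per gene, made with TopHat2 2.1.1 and HTSeq 0.6.0 per the submitters' processing notes; the genome build is not given in the sources used here. Totals were 48204100 to 100000375 counts per poly(A) library. Of 33737 gene IDs 21939 found a symbol in the ID table supplied as reference, whose spelling is kept.

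Counts were tested in R 4.3.3 with edgeR 4.0.16 (filterByExpr by group, TMM scaling, robust quasi-likelihood test, Benjamini-Hochberg adjustment over 22377 genes, threshold 0.05) on all 20 poly(A) libraries, which share 1 estimate of the spread; limma 3.58.1 was loaded with it and DESeq2 1.42.0 was an alternative. CPM is per TMM-scaled library. The classes came from the same test on the 8 rRNA-depleted libraries. Transcription-dependent genes passed the test and exceeded the amanitin level by 2-fold or more in WT at 4 hpf. Maternal genes had at least 1 CPM under amanitin at 2 hpf; declining ones were called with a log2 fold change of -0.5 or lower from 2 to 6 hpf, and stable ones stayed within 0.5. In counts simulated for the morphant comparison over 22034 genes, 66 genes were given a 4-fold change, 67 a 2-fold and 67 a 1.5-fold change. The test recovered 63.6%, 17.9% and 2.99% of them. Far fewer genes were changed than were called in the data, and the simulated noise held no axis shared between genes. These rates are therefore not those of the real comparison.

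The comparison, the 30 gene lists and the rules were chosen with earlier results of these data known, and 545 of 781 list symbols were matched. Named by rule were the 12 largest changes in each direction (at least 10 CPM, more than 3 counts), the 6 largest differences from WT and up to 5 called members of a list; other genes were chosen after their values were seen. Replicate numbers were not taken to pair the samples. Correlations of same-numbered deviations ran from -0.0520 to 0.0867, which cannot exclude a shared clutch. Promoter motifs were not analysed here, and no sequence is printed. Some results are not reported here, among them those of 1 gene list.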

Additional observations from a re-analysis of the deposited data

Results flagged for a closer look

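The change from 3 to 4 hpf in ybx1 MO differed from the WT change of the same hour, by edgeR's interaction test, for 458 genes. Among named genes the difference was highest for DUSP6 (7.43 on the log2 scale), ACKR3 (7.15, 1 of 2 gene IDs), drll.3 (7.08), si:dkey-188c14.4 (7.07), inka1a (6.89) and irx7 (6.40). It was lowest for gna15.1 (-7.05), HNF4A (-6.99), kcnk1a (-6.86), GFUS (-6.56, 1 of 2 gene IDs), SLC7A8 (-5.87) and ATP1B1 (-5.78, 1 of 2 gene IDs). A fit of only the groups compared called all of the highest and none of the lowest. Leaving out single libraries gave another order: the calls of DUSP6, irx7 and SLC7A8 held in every such fit. Those of the other named genes, on both sides, were lost in some of them.

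Against the WT change from 2 to 3 hpf the interaction test called 59 genes. OLA1, a GTPase gene, had the highest difference, 0.95, at an edgeR adjusted p of 0.0499. The lowest were ZMYND8 (-2.57) and NIBAN2 (-2.23), each 1 of 2 gene IDs, SSH2 (-2.18), ZFPM1 (-1.98), SBF2 (-1.97) and plekhg2 (-1.90).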

How the results depend on the processing

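With 2 libraries a group, counts of calls depended strongly on single libraries. Of 120 values of named genes, 58 kept direction and side of the threshold under every alternative and 0 reversed. Against 1737 calls (1075 higher, 662 lower), a fit of only the groups compared gave 2829 (1621 lower), a 2-fold minimum 1139 (237 lower), DESeq2 1033 lower, and leaving out 1 library 652 to 1560 (356 to 1006 higher, 226 to 554 lower). For the difference from WT of the same hour (458; 172 higher, 286 lower) DESeq2 gave 1407 (487 and 920), only the groups compared 77 (59 and 18), library totals alone 112 higher, and leaving out 1 library 126 to 3623 (44 to 2112 and 78 to 1511). For that from WT 2 to 3 hpf (59; 12 and 47) DESeq2 gave 514 (169 and 345), no filter 95 (23 and 72), only the groups compared 2013 (611 and 1402), library totals alone 34 (7 and 27), and leaving out 1 library 0 to 45 (0 to 15 and 0 to 30).

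Whether the replicate numbers pair the samples is not known. With them as a block, the counts were 1635 for the morphant change (1002 higher, 633 lower). They were 442 for the same-hour difference (166 and 276) and 35 for the other (7 and 28).

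The median of transcription-dependent genes was 1.02, 0.66 with only the groups compared, 0.94 with library totals and 0.77 to 1.23 without 1 library. Declining genes had -0.16 with DESeq2 or median-of-ratios factors, -0.18 with only the groups and -0.21 with totals. Stable genes (0.06) had 0.0221 with DESeq2, 0.0222 with median-of-ratios factors, 0.00623 with only the groups and, reversed, -0.0281 with totals.

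Without 1 library 3 to 8 organizer, 3 to 6 Nodal, 3 to 6 enveloping layer and 2 to 4 yolk layer genes rose, 5 to 7 oocyte mRNAs fell and 1 to 2 mitosis genes rose. Only the groups compared gave 12 enveloping layer genes and 3 ribosomal protein genes higher, and 15 oocyte and 1 Nodal gene lower. DESeq2 gave 1 enveloping layer gene lower, and totals alone 3 yolk layer genes higher. The causes were not tested. The 2-fold minimum and library totals alone were chosen after seeing the data.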

Other observations

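Families of developmental regulators, chosen after their values were seen, also held genes that rose in ybx1 MO from 3 to 4 hpf. Of 9 tested Iroquois homeobox genes (irx) 4 rose, and of 15 hairy-related repressor genes (her and hes) 6. Of 10 Frizzled receptor genes (fzd) 3 rose, of 7 zic zinc finger genes 3 and of 9 znfl zinc finger genes 4. None of these genes fell in edgeR's test, and a few of them, such as irx7, her5 and her11, are also on the lists. The calls of the zic and znfl genes depended on single libraries. So did those of IRX1, IRX5, her8a, HES6, FZD7 and the called FZD8 gene ID with the smaller rise. Over all genes tested 4.8% rose and 2.96% fell.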
